A study of Mus musculus with 6 samples.

Results

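The 9 genes described here mark disease-associated microglia, a state that brain-resident macrophages take on around damaged or degenerating tissue. They are Trem2, Tyrobp, Apoe, Cst7, Lpl, Itgax, Clec7a, Cd68 and Spp1, and they were taken by symbol from the 54532 genes of the deposited expression table. All 9 were found there, each in a single entry. Hippocampal RNA of 3 wild-type (WT) and 3 transgenic (TG) mice was sequenced. In the TG animals, G82R and L85P were introduced by CRISPR/Cas9 into mouse Slc1a2, the gene of the astrocytic glutamate transporter GLT-1, on a C57BL/6N background. The WT animals were littermates without them, no treatment of either group is named, and the age, zygosity and sex of the mice behind each library are not given in the sources used here. The comparison asks whether this microglial program differs between WT and TG hippocampus. Values of a group are given in the order of its replicates 1, 2 and 3, and WT1 or TG1 is replicate 1 of its group.

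In a healthy brain, microglia hold a homeostatic program that includes Cx3cr1, P2ry12 and Tmem119. The lipid-sensing receptor Trem2 signals through the adaptor Tyrobp, which carries an activation motif for the kinase Syk. When this pathway is engaged around plaques, dying cells or demyelinated axons, microglia turn up lipid handling genes (Apoe, Lpl), lysosomal genes (Cd68, Cst7), surface receptors (Itgax, Clec7a) and the secreted protein Spp1. The hippocampus is a mixed tissue, and several of these genes are not particular to microglia, since astrocytes hold much of the Apoe RNA and neurons express Lpl. In RNA of a whole tissue, fewer cells of a type and less RNA per cell cannot be told apart.

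The start regions of Trem2, Cst7 and Itgax are shown because Trem2 had the lowest p of the members and Cst7 and Itgax the largest ratios of TG to WT reads. Each is the 250 bases before the start site in RefSeq (GRCm38.p6), on the plus strand, at chr17:48346151-48346400 for Trem2, chr2:150570165-150570414 for Cst7 and chr7:128129300-128129549 for Itgax. Capitals mark the letters GGAAGT or their reverse complement ACTTCC, a form of site that ETS factors such as the microglial factor Spi1 can bind. Shorter or other forms of such sites are not marked.
Trem2: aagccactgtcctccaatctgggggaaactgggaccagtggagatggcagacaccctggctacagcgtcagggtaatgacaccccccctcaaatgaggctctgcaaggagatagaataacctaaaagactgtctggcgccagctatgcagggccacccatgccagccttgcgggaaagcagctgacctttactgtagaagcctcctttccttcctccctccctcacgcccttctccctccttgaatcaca
Cst7: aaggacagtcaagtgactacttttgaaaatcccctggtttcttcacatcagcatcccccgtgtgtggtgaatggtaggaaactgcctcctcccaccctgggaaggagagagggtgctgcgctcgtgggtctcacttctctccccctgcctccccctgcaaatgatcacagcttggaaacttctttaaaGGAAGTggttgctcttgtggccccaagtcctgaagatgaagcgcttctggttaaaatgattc
Itgax: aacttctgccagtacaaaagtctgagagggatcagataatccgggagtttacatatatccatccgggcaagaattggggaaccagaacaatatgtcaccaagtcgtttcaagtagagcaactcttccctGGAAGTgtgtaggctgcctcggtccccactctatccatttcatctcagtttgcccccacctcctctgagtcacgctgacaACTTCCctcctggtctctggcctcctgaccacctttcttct
RefSeq start regions were found for 7 of the 9 genes. The other 2 are Tyrobp and Lpl. The start regions of Clec7a overlap almost wholly and some of Apoe in part, so not all regions counted here are separate. The letters were present in 3 of the 11 start regions of these 7 genes (those of Cst7 and Itgax and 1 of Spp1), and in 19.7% of all 32851 start regions of this length. The Cst7 region held them 62 bases before the start site and the Itgax region 121 and 41 bases before it. The Trem2 region did not hold these exact letters, which leaves out other forms of ETS site.

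None of the 9 genes passed an adjusted p of 0.05 between WT and TG mice. Values are FPKM, the reads of a gene scaled to its length and to a size set for each library. They were compared with limma on log2(FPKM + 0.1) in the 20952 genes whose mean FPKM reached 0.1. At that threshold 2 of the 20952 genes passed (0.00955%), and the smallest adjusted p among the members was 0.786, for Trem2. Of the 9 genes, 8 reached the mean FPKM needed for the test, and Itgax, at 0.0936, did not. At an unadjusted p under 0.05, Trem2 was higher in TG mice and no member was lower, where 3.13% of all genes tested were higher, 2.78% were lower and 5.91% passed in either direction. The median log2 fold change of the 8 genes was 0.16, with 6 positive and 2 negative values, against 0.00 to 2 decimals over all genes tested. Cst7 passed the filter through the TG group alone, and without it the median of the other 7 was 0.12, with 5 positive and 2 negative values.

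**Figure D1:**
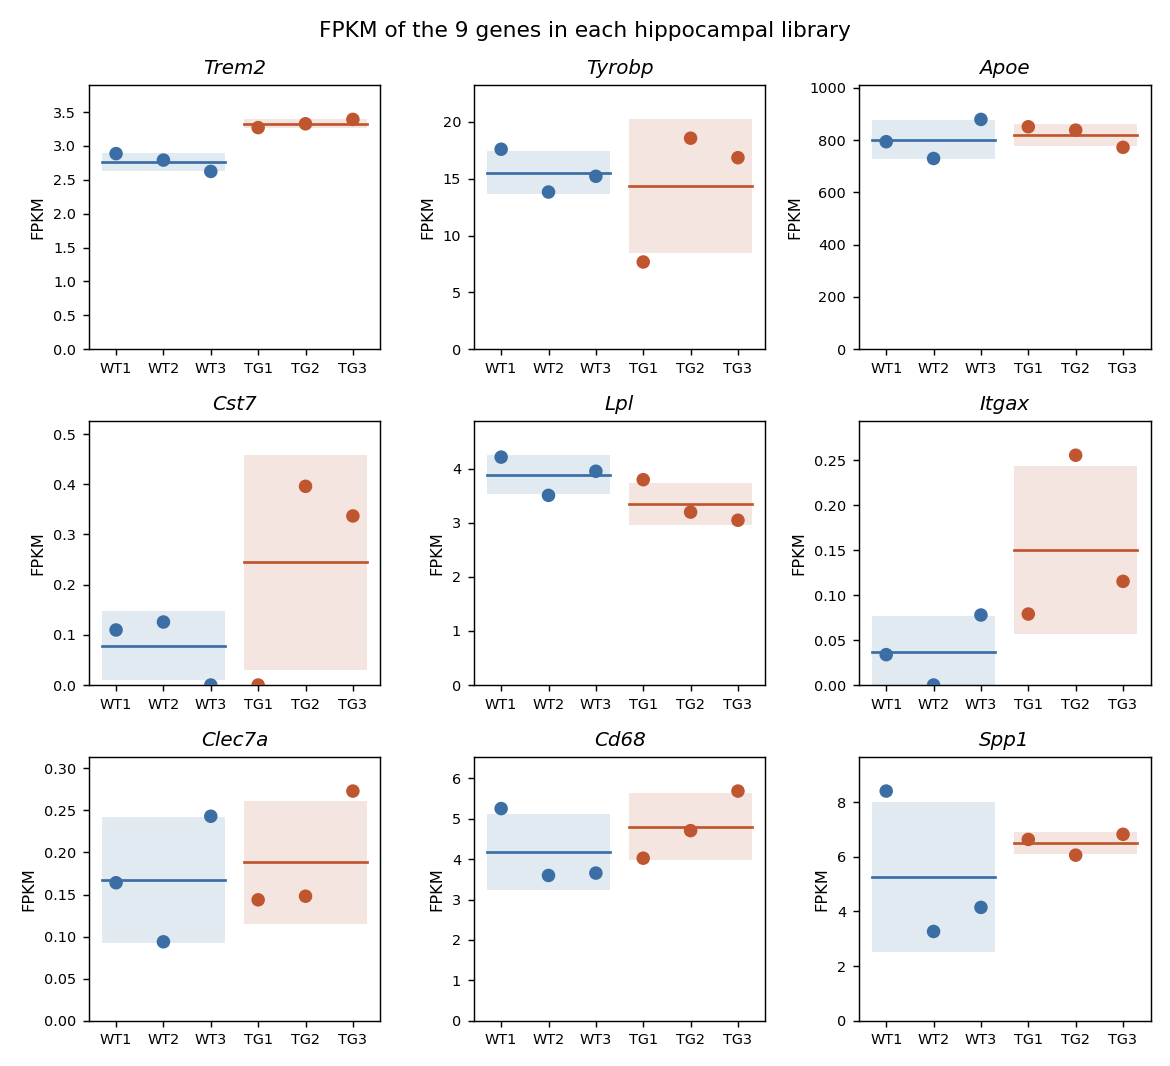
FPKM (y axis, linear from 0, its own scale in each panel) of the 9 genes in each of the 6 libraries (x axis), with the mean (line) and SD (band) of 3 WT (blue) and 3 TG (orange) libraries. The 3 TG values of Trem2 lie between 3.27 and 3.39, above the WT values of 2.62 to 2.89, and Tyrobp is low in TG1 at 7.67.

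The libraries held 16081281 to 18751057 reads on genes, recovered as whole reads from the FPKM and the gene lengths. Slc1a2 itself was at 193 ± 13.8 FPKM in the WT group and 215 ± 7.61 in the TG group (SD, n = 3), which does not check the 2 changes, since FPKM do not show bases. Hippocampal neuron markers were high in all libraries, with a summed FPKM of 1436 to 1660 over 10 genes. Libraries TG1 and TG2 stood apart by RNA of the choroid plexus, the tissue that makes cerebrospinal fluid, whose 18 marker genes lay at medians of 2.86 and 4.23 above the WT mean on the log2 scale against -0.07 in TG3. Oligodendrocyte markers were lowest in TG1 in 8 of 8 genes, with medians of 0.14, 0.05 and -0.20 across WT libraries and -0.65, -0.18 and -0.06 across TG libraries. Their median log2 fold change was -0.29 with 8 of 8 values negative, and 1 gene, Opalin, was lower at an unadjusted p under 0.05 (2.78% over all genes tested). TG1 also stood apart by low values of short genes. Among 136 genes of 500 to 800 bases with a mean FPKM of 5 or more, the median difference from the WT mean on the log2 scale was -0.02, -0.16 and 0.21 across WT libraries and -0.30, -0.09 and -0.04 across TG libraries.

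**Figure D2:**
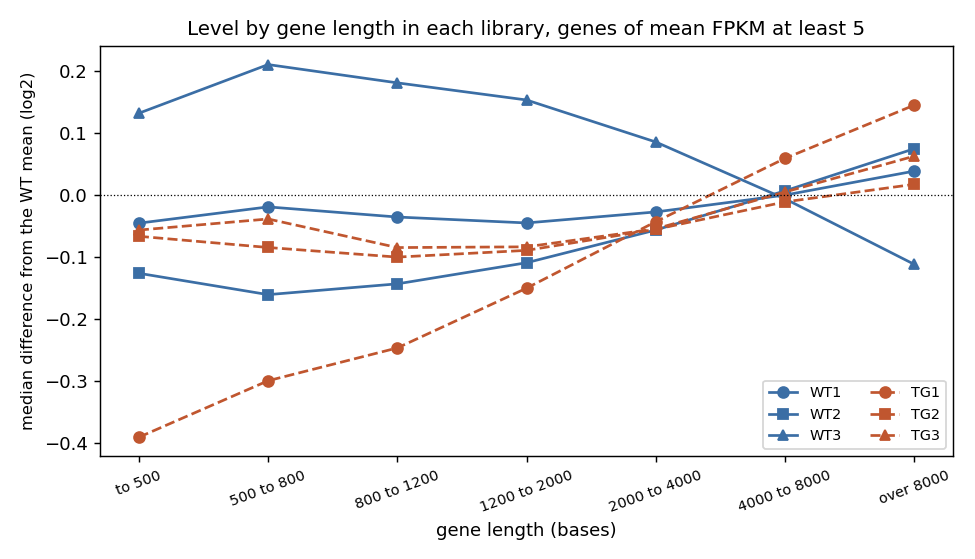
Median difference from the WT mean on the log2 scale (y axis) of genes with a mean FPKM of 5 or more, in 7 classes of gene length in bases (x axis), as 1 line per library (WT solid, TG dashed). TG1 runs from -0.39 in the shortest class to 0.14 in the longest, and WT3 runs the other way, from 0.13 to -0.11.

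Trem2 was the single member tested whose groups did not overlap. It encodes the receptor for lipids, lipoproteins and cell debris on the microglial surface (ENSMUSG00000023992, chromosome 17 from 48346401 to 48354147 in GRCm38). The WT libraries were at 2.89, 2.79 and 2.62 FPKM and the TG libraries at 3.27, 3.33 and 3.39, on 223 to 303 reads. All TG values exceeded all WT values, a pattern that 6.35% of the genes tested shared, and the reverse pattern, which no member tested had, was seen in 5.71%. The means were 2.77 ± 0.133 and 3.33 ± 0.0607 (SD, n = 3), and the log2 fold change was 0.26 (95% interval 0.04 to 0.48), with an unadjusted p of 0.0274 and an adjusted p of 0.786 in limma. With 1 library left out at a time it stayed between 0.22 and 0.29, but its unadjusted p was 0.0536 without TG2 and 0.0672 without TG3. With a choroid plexus score as a covariate the log2 fold change was 0.27 and the p 0.107. TG3, the TG library at the WT level of choroid plexus genes, had 3.39 FPKM of Trem2, close to 3.27 in TG1 and 3.33 in TG2. The cause of the Trem2 difference was not tested.

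The level of Trem2 depends on the length that FPKM divide by. The file uses 4946 bases, the sum of all annotated exons, whereas the longest coding transcript of Trem2 has 1088 bases. Per length of that transcript, Trem2 was at 12.6 ± 0.605 FPKM in the WT group and 15.1 ± 0.276 in the TG group (SD, n = 3), near its partner Tyrobp at 17.4 ± 2.13 and 16.0 ± 6.54. These values assume that all reads of each gene came from its longest coding transcript, which was not tested. On the deposited scale the WT means of the pair were 2.77 and 15.5. The choice of length does not touch the ratio of WT to TG values, because a gene has 1 length in all libraries.

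Tyrobp, also known as DAP12, is the short adaptor through which Trem2 signals (ENSMUSG00000030579, chromosome 7 from 30413760 to 30417585). The WT libraries were at 17.6, 13.8 and 15.2 FPKM and the TG libraries at 7.67, 18.6 and 16.9. TG2 and TG3 lay within the WT range or just above it, and TG1, with 81 reads against 149 to 222 in the other libraries, lay far below. The log2 fold change was -0.21 (95% interval -0.94 to 0.52, adjusted p = 0.874 in limma). Without TG1 it turned to 0.19 (unadjusted p = 0.168), so its sign rested on that library. Tyrobp has 667 bases, and in TG1 it lay at -1.002 from the WT mean on the log2 scale, where genes of 500 to 800 bases lay at a median of -0.30. Once each library was corrected for gene length, the log2 fold change was -0.14. The cause of the low Tyrobp value in TG1 was not tested.

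Trem2 and Tyrobp did not move together in TG1. There were 3.16 Trem2 reads for each Tyrobp read in TG1, against 1.22, 1.497 and 1.28 in the WT libraries. The ratios of 1.33 in TG2 and 1.49 in TG3 lay inside the WT range.

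Lipid handling was represented by Apoe and Lpl. Apoe, the main lipid carrier of the brain (ENSMUSG00000002985, chromosome 7 from 19696109 to 19699188), was by far the most abundant member and made up 95.4 to 97.1% of the summed FPKM of the 9 genes. The WT libraries were at 794, 729.5 and 879 FPKM and the TG libraries at 851, 838 and 772, on 25194 to 35189 reads. The groups overlapped, and the log2 fold change was 0.04 (95% interval -0.25 to 0.33, adjusted p = 0.946 in limma). Astrocyte markers had a median log2 fold change of 0.03 over 10 genes, none of which passed an unadjusted p of 0.05 (5.91% over all genes tested).

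Lpl encodes lipoprotein lipase, which frees fatty acids from lipoprotein particles (ENSMUSG00000015568, chromosome 8 from 68880491 to 68907448). The WT libraries were at 4.22, 3.51 and 3.96 FPKM and the TG libraries at 3.80, 3.20 and 3.05. TG2 and TG3 were the lowest libraries, and TG1 lay within the WT range. The means of 3.89 ± 0.358 and 3.35 ± 0.397 (SD, n = 3) gave a log2 fold change of -0.21 (95% interval -0.50 to 0.07, unadjusted p = 0.122 and adjusted p = 0.789 in limma), and the value lay between -0.34 and -0.15 under 18 alternative settings. Without TG1 it was -0.31 with an unadjusted p of 0.0436 and an adjusted p of 0.898.

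Cd68 and Cst7 belong to the lysosome. Cd68 is a glycoprotein of lysosomal membranes that is used as a stain for activated microglia (ENSMUSG00000018774, chromosome 11 from 69664213 to 69666153). The WT libraries were at 5.25, 3.60 and 3.65 FPKM and the TG libraries at 4.02, 4.70 and 5.68, on 73 to 129 reads. WT1 lay above TG1 and TG2, so the groups overlapped. The log2 fold change was 0.21 (95% interval -0.22 to 0.64, adjusted p = 0.789 in limma), and it was 0.08 without TG3 and 0.38 without WT1.

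Cst7 encodes cystatin F, an inhibitor of lysosomal cathepsins that is among the strongest markers of the disease-associated state (ENSMUSG00000068129, chromosome 2 from 150570415 to 150578944). It was near the limit of detection, with 2, 2 and 0 reads across WT libraries and 0, 7 and 6 across TG libraries. Its FPKM was 0.110 in WT1, 0.126 in WT2, 0.396 in TG2 and 0.337 in TG3. It was listed at 0 in WT3 and TG1, where a count of 0 allows up to 3 reads, or an FPKM of 0.163 and 0.192. In sum there were 4 reads in the WT group (exact Poisson 95% interval 1.09 to 10.2) and 13 in the TG group (6.92 to 22.2), and such intervals and floors cover counting error only. The log2 fold change of 0.73 (95% interval -0.95 to 2.42, adjusted p = 0.804 in limma) depended on the pseudocount, with 1.04 at a pseudocount of 0.01 and 0.19 at 1. Without TG1 it was 1.47 with an unadjusted p of 0.0236, and without TG2 it was 0.32 with an unadjusted p of 0.700.

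The surface receptors Itgax and Clec7a were low as well. Itgax encodes the integrin chain CD11c, which most homeostatic microglia lack (ENSMUSG00000030789, chromosome 7 from 128129547 to 128150657). It had 3, 0 and 7 reads across WT libraries and 6, 22 and 10 across TG libraries, or 0.0338, 0 and 0.0778 FPKM against 0.0789, 0.256 and 0.115. The TG values were all above the WT values on the FPKM scale. Of the genes tested, among which Itgax is not counted, 6.35% shared this pattern. TG1 and WT3 were nearly equal in FPKM, and in reads TG1 was below WT3. TG2, the library with the most choroid plexus RNA, held 22 of the 38 TG reads, and a link was not tested. The sums of 10 and 38 reads had exact Poisson 95% intervals of 4.80 to 18.4 and 26.9 to 52.2. These cover counting error only, not the spread between mice. Itgax was under the filter, and with no filter on low values its log2 fold change was 0.84 with an unadjusted p of 0.0576 and an adjusted p of 0.802 in limma. Other genes' transcripts hold 8.02% of its 50-base stretches.

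Clec7a, or dectin-1, binds fungal glucans and signals through Syk (ENSMUSG00000079293, chromosome 6 from 129461591 to 129472779, annotated in this mouse genome as a polymorphic pseudogene). It had 8, 4 and 12 reads across WT libraries and 6, 7 and 13 across TG libraries. The sums of 24 and 26 reads were nearly equal, and the log2 fold change of 0.12 (95% interval -0.81 to 1.05, adjusted p = 0.947 in limma) turned to -0.09 without WT2 and to -0.08 without TG3. With the choroid plexus score as a covariate it was 0.47 (unadjusted p = 0.421).

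Spp1 encodes osteopontin, a secreted ligand of integrins and CD44 (ENSMUSG00000029304, chromosome 5 from 104435118 to 104441050). The WT libraries were at 8.40, 3.27 and 4.15 FPKM and the TG libraries at 6.63, 6.06 and 6.82. WT1 held the highest value of all, whereas the 3 TG libraries lay close together and above WT2 and WT3. The log2 fold change was 0.41 (95% interval -0.31 to 1.14, unadjusted p = 0.221 and adjusted p = 0.789 in limma). Without WT1 it was 0.80 with an unadjusted p of 0.00134 and an adjusted p of 0.495, and without WT2 it was 0.13. Meningeal and fibroblast markers were highest in WT1 too, with medians over 10 genes of 0.84, -0.22 and -0.51 across WT libraries and 0.49, -0.07 and 0.58 across TG libraries on the log2 scale, and their part in the value of Spp1 was not tested. Of its exon bases, 18.8% overlap Gm42793 on the same strand, so reads there could be split or left out.

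**Figure D3:**
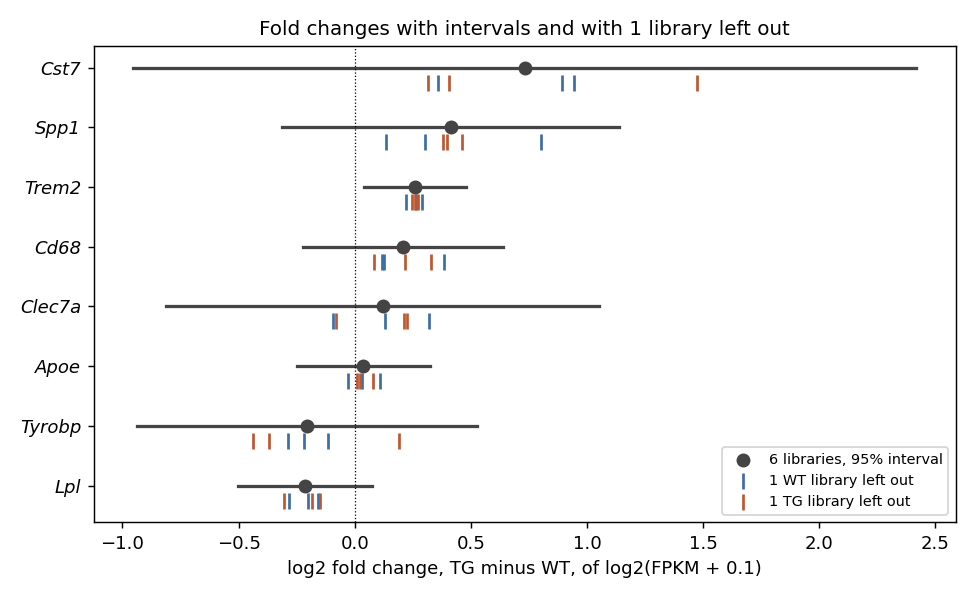
Log2 fold change between TG and WT mice on the log2(FPKM + 0.1) scale (x axis) of the 8 genes tested (y axis), with the 95% interval from limma (line) and the values with 1 WT (blue) or 1 TG (orange) library left out (ticks). Among these 8 intervals that of Trem2, 0.04 to 0.48, lies apart from 0, and the ticks of Tyrobp, Apoe and Clec7a fall on both sides of 0.

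Ranked by the deposited WT mean, the genes ran from Apoe (801) through Tyrobp (15.5), Spp1 (5.27), Cd68 (4.17), Lpl (3.89) and Trem2 (2.77) to Clec7a (0.167), Cst7 (0.0784) and Itgax (0.0372). These are FPKM over the exon length of each gene. The WT libraries of Spp1, Cd68 and Lpl overlapped, as did those of Clec7a and Cst7 and of Cst7 and Itgax. The 3 lowest members in the WT group were also the lowest in the TG group, with means of 0.188 for Clec7a, 0.244 for Cst7 and 0.1499 for Itgax.

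The other genes of the disease-associated program were read from a list of 34, of which 33 were tested. At an unadjusted p under 0.05, 2 of the 33 were higher in TG mice and 0 were lower, beside 3.13% and 2.78% of all genes tested, and 0 passed an adjusted p of 0.05 in limma. With so few genes such a count is not set apart from that background. Their median log2 fold change was 0.08, with 22 positive and 11 negative values. The 2 genes were Lgals3bp, a secreted glycoprotein that interferon also induces, and Lyz2, the lysozyme of myeloid cells. Lgals3bp was at 5.95, 4.18 and 4.54 FPKM across WT and 9.06, 32.2 and 7.68 across TG libraries (log2 fold change 1.42, unadjusted p = 0.0236 in limma). It was highest in TG2, the library with the most choroid plexus RNA, and a link between the 2 was not tested. Lyz2 was at 10.4, 5.69 and 7.18 FPKM across WT and 8.79, 13.8 and 16.8 across TG libraries (log2 fold change 0.75, unadjusted p = 0.0323 in limma), with TG1 inside the WT range. Fth1, a ferritin chain and the most abundant gene of this list, had TG values that were all below the WT values (5.71% over all genes tested). Its means were 2684 ± 450.0 and 2218 ± 184 FPKM (SD, n = 3), with an unadjusted p of 0.208 in limma.

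Homeostatic microglia genes were compared in the same way. Of 14 genes, 1 was higher and 0 were lower at an unadjusted p under 0.05, where 5.91% of all genes tested passed in either direction, and the median log2 fold change was 0.00 to 2 decimals. Csf1r, the receptor that microglia need to survive, was the gene that was higher, with 19.4, 18.9 and 19.9 FPKM across WT and 20.1, 23.2 and 23.0 across TG libraries (log2 fold change 0.19, unadjusted p = 0.0446 in limma). Cx3cr1, Tmem119 and P2ry12 had log2 fold changes of 0.11, 0.12 and -0.14 with unadjusted p-values of 0.324, 0.482 and 0.298. The most abundant gene of the list, Cst3, which astrocytes express as well, had 968 ± 172 and 845 ± 128 FPKM (SD, n = 3).

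The list of all microglia and macrophages had its lowest median in TG1, the library where Tyrobp was lowest, with -0.17, 0.32 and 0.26 in the TG and 0.03, -0.07 and 0.05 in the WT libraries on the log2 scale. Of the 15 genes, 7 were lowest in TG1 and 8 in another library. The median log2 fold change was 0.15, 13 values were positive, and 1 gene, Mpeg1, was higher at an unadjusted p under 0.05 (3.13% over all genes tested). Mpeg1, a pore-forming protein of macrophages, was at 6.81, 6.28 and 6.92 FPKM across WT and 7.49, 10.9 and 9.96 across TG libraries (log2 fold change 0.48, unadjusted p = 0.0105 and adjusted p = 0.786 in limma). Ctss, or cathepsin S, the most abundant gene of this list, was at 45.6, 42.3 and 55.3 FPKM across WT and 39.5, 76.5 and 64.2 across TG libraries. Like Tyrobp, it was lowest in TG1 and highest in TG2.

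**Figure D4:**
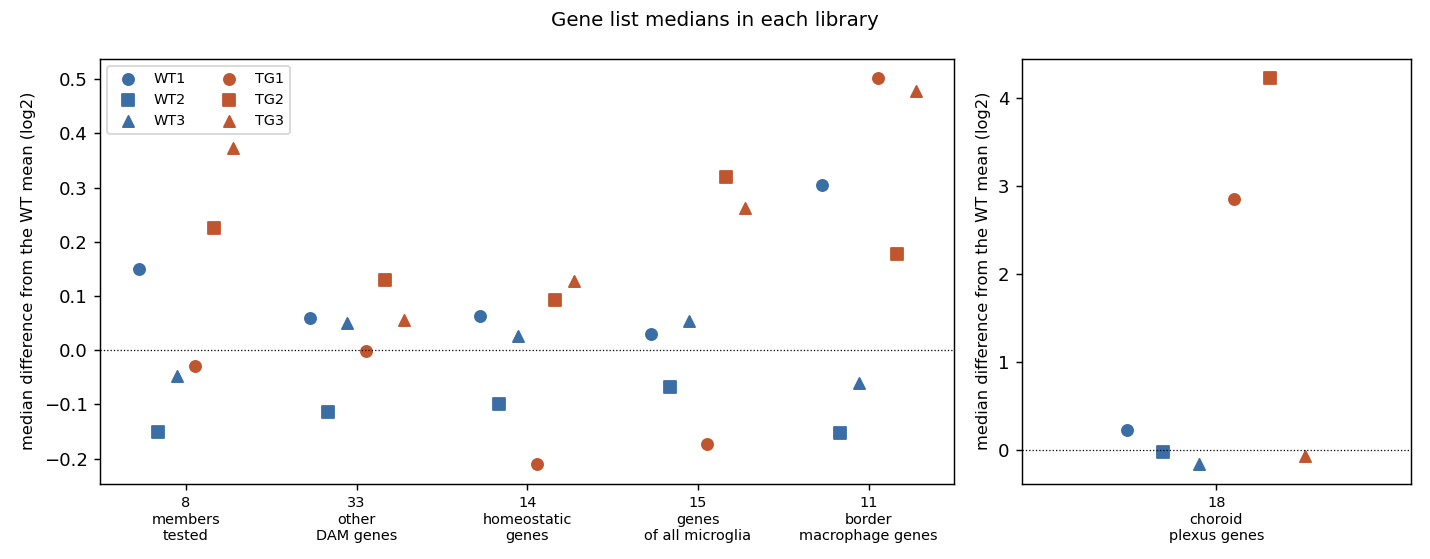
Median difference from the WT mean on the log2 scale (y axis) for 5 gene lists (left) and for choroid plexus markers (right, wider scale), as 1 point per library (WT blue, TG orange). The medians of the 8 members tested, at -0.15 to 0.15 in WT and -0.03 to 0.37 in TG libraries, overlap between the groups, and TG1 is below TG2 and TG3 in the members, the other disease-associated genes, the homeostatic genes and the genes of all microglia.

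The members were also set against the homeostatic genes of the same library. After the mean deviation of the 14 homeostatic genes was subtracted, Trem2 lay at -0.02, 0.11 and -0.09 across WT and at 0.42, 0.17 and 0.20 across TG libraries on the log2 scale. The TG values all lay above the WT values, as they did before the subtraction, so this is not separate support. In TG1 the homeostatic mean lay at -0.18, and Trem2 before the subtraction at 0.23. Itgax also had all TG values above all WT values, with 0.60, 1.33 and 0.60 against -0.08, -0.32 and 0.40. The other 7 genes overlapped. On this relative scale 3.95% of the 20952 genes tested, among which Itgax is not counted, had all TG values above all WT values. With the homeostatic score as a covariate, the unadjusted p in limma was 0.0412 for Trem2 and 0.158 for Tyrobp.

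Partners of the members were counted by role. A list of 16 genes at and below Trem2 and Clec7a held adaptors, kinases, phosphatases and proteases, not all of which transmit a signal. Of these, 0 were higher and 1 was lower at an unadjusted p under 0.05 (3.13% and 2.78% over all genes tested), and the median log2 fold change was 0.09. The gene that was lower was Zap70, a Syk-like kinase known from T cells, with 2.28, 2.34 and 2.499 FPKM across WT and 1.58, 1.44 and 1.44 across TG libraries (log2 fold change -0.64, unadjusted p = 0.000830 and adjusted p = 0.654 in limma). Syk itself was at 0.416, 0.470 and 0.382 FPKM across WT and 0.520, 0.548 and 0.515 across TG libraries. All TG values were above all WT values (6.35% over all genes tested), with an unadjusted p of 0.255 in limma. Grb2, a broadly expressed adaptor and the most abundant of the list, had a log2 fold change of -0.01.

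Integrin chains and Cd44, which pair with Itgax or bind Spp1, held 2 genes of 9 that were higher and 0 that were lower at an unadjusted p under 0.05 (3.13% and 2.78% over all genes tested), and their median log2 fold change was 0.12. Itgb2, the beta chain that Itgax needs at the surface, was at 2.27, 1.60 and 1.89 FPKM across WT and 2.34, 3.18 and 3.07 across TG libraries (log2 fold change 0.55, unadjusted p = 0.0147 and adjusted p = 0.786 in limma). The TG1 value was close to that of WT1. The other was Itgb5, a partner of the alpha-V chain that binds osteopontin, with a log2 fold change of 0.27 (unadjusted p = 0.0462 in limma). Itgb1, the most abundant chain, had 15.6 ± 1.49 and 16.9 ± 0.332 FPKM (SD, n = 3).

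Among 10 cysteine cathepsins and cystatins around Cst7, 1 was higher and 0 were lower at an unadjusted p under 0.05 (3.13% and 2.78% over all genes tested), and the median log2 fold change was 0.14. This was Ctsc, or cathepsin C, a target of cystatin F that activates serine proteases of immune cells, with 1.93, 1.53 and 1.96 FPKM across WT and 2.46, 3.11 and 2.23 across TG libraries (log2 fold change 0.50, unadjusted p = 0.0189 and adjusted p = 0.786 in limma). All its TG values were above all its WT values (6.35% over all genes tested), and it was highest in TG2.

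Of 16 receptors, exporters and regulators of Apoe, 14 were tested, and Apoc2 and Apoc4 were listed at 0 in all 6 libraries. Their median log2 fold change was 0.13. Lcat, which esterifies cholesterol on lipoproteins, was the 1 gene under an unadjusted p of 0.05 (5.91% over all genes tested) and was lower, with 15.8, 16.4 and 17.8 FPKM across WT and 13.5, 15.2 and 14.3 across TG libraries (log2 fold change -0.21, unadjusted p = 0.0274 in limma). Clu, the other abundant apolipoprotein of the brain, had 252 ± 37.97 and 255 ± 28.5 FPKM (SD, n = 3). Around Lpl, 11 of 13 genes were tested with a median log2 fold change of 0.02, and 1 was higher at an unadjusted p under 0.05 (3.13% over all genes tested). This was Soat1, which stores cholesterol as esters, with 3.07 ± 0.203 and 3.68 ± 0.310 FPKM (SD, n = 3) and an unadjusted p of 0.0490 in limma. Dgat2, a triglyceride enzyme and the most abundant gene of that list, had a log2 fold change of -0.13 and an unadjusted p of 0.0879 in limma.

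Markers of other macrophages and of blood cells were read in the same libraries. The 12 genes of border-associated macrophages had a summed FPKM of 5.06 to 6.95 in WT and 6.76 to 8.01 in TG libraries, 11 were tested, and 1, Stab1, was higher at an unadjusted p under 0.05 (log2 fold change 0.34, beside 3.13% of all genes tested). Their median log2 fold change was 0.34, beside 0.16 for the members, with 10 of 11 values positive. Both medians hold genes that passed the filter through the TG group alone, which favours positive values, so they are not ranked. Stab1, Folr2 and Ms4a7 had all TG values above all WT values, a pattern that 6.35% of all genes tested shared. Folr2 and Ms4a7 passed the filter through the TG group alone, on 0 to 7 and 3 to 22 reads. In both, the highest WT and the lowest TG library held equal reads (2 for Folr2 and 8 for Ms4a7). The 10 monocyte and dendritic cell genes summed to 3.36 to 3.72 in WT and 3.69 to 4.07 in TG libraries, with 8 tested and a median log2 fold change of 0.18. Of these, 1 gene, Chil3, was lower at an unadjusted p under 0.05 (2.78% over all genes tested), on 4 to 17 reads. The 7 neutrophil genes summed to 10.9 to 28.0 in WT and 7.23 to 22.9 in TG libraries, with 6 tested, a median of -0.48 and 0 under an unadjusted p of 0.05 (5.91% over all genes tested). No gene of these 3 lists was at 0 in all libraries, and their part in the values of Cd68, Spp1 and Itgax was not tested.

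By closeness of profile over the 6 libraries, the genes outside all lists nearest to the mean profile of the 8 members tested were Gucy2g, Prim1, Ifit2, Prkag2os2 and Umps. Their root mean square difference from it was 0.0512 to 0.0803 on the log2 scale, where the median over 13154 genes was 0.256. For Tyrobp alone the nearest were Cxcr4, Ninj2 and D730003I15Rik (0.0594 to 0.102), which share its low value in TG1. The mean profile weighs each tested member alike. Cst7 weighs most in it, since it ranged from -0.75 to 1.56 around its WT mean, the widest of these genes. It did so on 0 to 7 reads and passed the filter through the TG group alone. With 6 libraries and this many genes, near profiles are a description only.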

How the data were processed

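RNA of the hippocampus came from 3 WT and 3 TG mice. For extraction and libraries, the labels give RNeasy and SMARTer kits, whereas the study's methods give Trizol and NEBNext. The authors counted reads per gene with HTSeq 0.6.0 and deposited FPKM, 1 column per library, unpooled. The aligner and the use of strand are not given in the sources used here. The submitters' processing notes name GRCm38, and 54409 deposited identifiers were in GENCODE M21 of that build, 53499 with the same start and end.

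Multiplied by gene length, the FPKM of a library were whole multiples of 1 value in 100% of cases (tolerance 0.05 reads), which gave the reads per gene. The library size that this value implies was not the total of reads on genes. In TG1 it was 15824455 against 16116117 reads on genes. The 20952 genes whose mean FPKM reached 0.1 entered limma 3.58.1 (R 4.3.3) on log2(FPKM + 0.1), with empirical Bayes variances with a trend, no covariate and Benjamini-Hochberg adjustment over all genes. Such fold changes understate the change of low genes. The script was tested on simulated data. The p-values measure the spread between 3 libraries per group, which may be technical in part.

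The members, the lists and the rule for naming were chosen with earlier results of these data known. The rule names all members, Slc1a2, 4 homeostatic genes that the study names and, per list, its lowest p and its highest mean FPKM, plus the nearest profiles. Lyz2, Itgb5, Syk, Folr2 and Ms4a7 were named after their values were seen. Alternatives were another pseudocount, filter, scaling or variance model, voom on the reads, covariates, a replicate block and left-out libraries. Summaries used Python 3.11.15.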

Additional observations from a re-analysis of the deposited data

How the results depend on the processing

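None of the 8 genes tested passed an adjusted p of 0.05 in limma under any of the 18 alternatives, and 1 passed an unadjusted p of 0.05, which became 0 with the replicate block, with the choroid plexus covariate and without TG1 and TG2 together. The block uses replicate numbers that no source says pair the mice, and same-numbered libraries deviated with correlations of 0.0125, 0.0434 and 0.00314 across genes and WT3 correlated best with TG1. It moved the calls over all genes from 2 to 0 at an adjusted p of 0.05, and the other alternatives gave 0 to 9. Leaving out 1 library gave 0 to 3 such members. There were 2 without WT1, 3 without TG1 and 0 without TG2 or TG3, where 6.56%, 4.45%, 4.82% and 5.06% of all genes passed. The 2 were Trem2 and Spp1, higher in TG mice. The 3 were Trem2 and Cst7, which were higher, and Lpl, which was lower. With 1 library left out the median log2 fold change was 0.044 (without WT2) to 0.249 (without TG1), and 0.082 without TG3. It was 0.373 without TG1 and TG2 together. These medians include Cst7, which passed the filter through the TG group alone, on 0 to 7 reads. Of the other disease-associated genes, 2 passed an unadjusted p of 0.05, where 5.91% of all genes tested did. The count was 0 when the variance had no trend (5.64% of all genes) or with the choroid plexus covariate (3.41%). It was 1 with the replicate block (5.94%), 4 with voom (6.22%) and 5 with the homeostatic covariate (5.96%). With 1 library left out it was 0 to 6. It was 0 without WT3 (4.19%), 6 without TG1 (4.45%) and 1 without WT2 (6.35%), TG2 (4.82%) or TG3 (5.06%). Of the homeostatic genes, 1 passed, with 0 under a mean FPKM of 1 or more (6.21% of all genes) and the length correction (5.92%). It was also 0 with no trend, voom, the replicate block and the choroid plexus covariate, beside the shares just given. With 1 library left out, 0 to 3 homeostatic genes passed (3 without TG1, 0 without WT2, TG2 or TG3), beside those same shares. Their count under the homeostatic covariate was not computed, as the covariate is made from them. Apoe turned to -0.024 under the choroid plexus covariate, to -0.027 without WT2 and to -0.048 without TG1 and TG2, where Tyrobp was 0.123 and Clec7a 0.521. With 1 library left out, Apoe lay between -0.027 and 0.107, Clec7a between -0.091 and 0.320 (-0.080 without TG3) and Tyrobp between -0.440 and 0.192. The causes were not tested. The length correction and the fit without TG1 and TG2, in which TG3 was assumed to vary like the WT libraries, were chosen after seeing the data. Trem2 kept its sign in all 18, with an unadjusted p under 0.05 in 13. Cst7, Itgax and Clec7a had at most 22 reads in a library, which limits what can be seen of them.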
